A study of Caenorhabditis elegans with 2 samples.

Results

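Small nucleolar RNA (snoRNA) genes were examined for peaks of the T-box protein TBX-37 in early embryos of the nematode Caenorhabditis elegans. The members were all 346 genes of biotype snoRNA in the Ensembl annotation of the WBcel235 assembly, out of 46890 annotated nuclear genes. A gene was called bound when the summit of a peak in the conservative list of 1107 peaks lay inside it or within 100 bp of it, and 57 of the 346 genes were bound (16.5%, exact 95% binomial interval 12.7 to 20.8). The strongest peak of the list lay at the neighbouring genes C51F7.3 and C51F7.4, so the 57 genes held 56 distinct summits. All samples belonged to 1 group of 2 biological replicates. They were whole animals of strain RW12282 in which CRISPR insertion at the tbx-37 gene gave the allele st12282[tbx-37::TY1::EGFP::3xFLAG] III, taken at 0 hours as early embryos from bleached eggs. Chromatin was precipitated with an antibody against green fluorescent protein and sequenced (ChIP-seq). There was no second genotype or treatment, and no input or untagged library was analysed here, so that the part of any signal that depends on TBX-37 was not tested. Whole embryos mix all cells, and which cells carried the signal cannot be read from it. The authors built the conservative list by comparing the replicates, and each replicate had in addition a ranked list of candidates, from which the strongest candidate within 100 bp of each gene was taken. The lists hold no read counts, so the depth is unknown, and intervals cover counting error over genes only.

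SnoRNAs guide the chemical modification of ribosomal and spliceosomal RNA in the nucleolus. The box C/D class directs 2′-O-methylation together with fibrillarin, and the box H/ACA class directs pseudouridylation together with dyskerin. In animals many snoRNA genes sit in introns of protein-coding genes and are released from the spliced intron, whereas others are transcribed from promoters of their own. Transfer RNA (tRNA) genes are transcribed by RNA polymerase III from internal elements, box A and box B, that recruit the factor TFIIIC, and termination occurs at a run of T. Small nuclear RNA (snRNA) genes instead use a proximal sequence element (PSE) upstream of the start.

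Upstream of bound snoRNA genes lay sequences with the letters of a tRNA promoter. The genes below show 90 bases before the gene and its first 20 bases, read from the WBcel235 genome (ce11) on the strand of the gene. The first 4 were bound and have capitals at box A and box B, searched as TGGC, 2 free bases and AGTGG for box A, and as GGTTCGA, 2 free bases and CC for box B, with up to 2 mismatches in the 9 fixed letters of each. They are shown for the strongest independent genes (W03C9.9, T06C12.16), for a strong intronic gene (C05D2.15) and for a bound gene in which both boxes were complete (T24H7.6).
W03C9.9: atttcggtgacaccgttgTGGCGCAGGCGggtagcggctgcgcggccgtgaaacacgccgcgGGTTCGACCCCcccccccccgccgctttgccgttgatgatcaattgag
T06C12.16: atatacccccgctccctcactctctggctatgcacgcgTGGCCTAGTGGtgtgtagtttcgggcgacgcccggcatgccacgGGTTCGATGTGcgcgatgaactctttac
C05D2.15: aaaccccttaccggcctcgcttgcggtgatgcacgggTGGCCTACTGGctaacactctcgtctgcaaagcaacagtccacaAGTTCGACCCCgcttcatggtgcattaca
T24H7.6: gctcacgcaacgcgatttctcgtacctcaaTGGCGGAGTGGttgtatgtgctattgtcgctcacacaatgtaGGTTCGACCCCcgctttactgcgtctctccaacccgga
The printed regions are chrII:11960808-11960917 (plus strand), chrV:15873907-15874016 (minus strand), chrIII:5602160-5602269 (minus strand) and chrII:6248627-6248736 (plus strand). None of them overlaps an exon of a protein-coding gene.

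Y59E1B.14 is shown as the contrast, because it was not bound although both boxes were complete upstream of it.
Y59E1B.14: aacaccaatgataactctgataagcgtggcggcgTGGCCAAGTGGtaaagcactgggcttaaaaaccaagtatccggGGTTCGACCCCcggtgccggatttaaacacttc
Its region is chrX:1891419-1891528 (plus strand), and the nearest conservative summit was 10633 bp away. Replicate 1 had a candidate of signal value 21.2 within 100 bp and replicate 2 had none.

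A second kind of word stood upstream of 6 other bound genes. It resembled the PSE of snRNA genes and was searched as AACCCG, 5 free bases and TGTCGG, which are capitals in these 3 intronic genes.
W04D2.7: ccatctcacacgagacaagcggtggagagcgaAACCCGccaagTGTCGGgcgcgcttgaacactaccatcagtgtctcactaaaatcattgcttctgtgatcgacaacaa
smy-2: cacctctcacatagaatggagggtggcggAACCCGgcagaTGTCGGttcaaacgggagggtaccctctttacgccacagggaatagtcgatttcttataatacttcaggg
ZK994.7: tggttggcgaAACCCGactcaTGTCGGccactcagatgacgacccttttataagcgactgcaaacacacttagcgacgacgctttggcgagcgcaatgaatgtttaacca
These regions are chrV:12491190-12491299 (plus strand), chrIV:9511447-9511556 (minus strand) and chrV:8500489-8500598 (plus strand), and they too overlap no exon of a protein-coding gene.

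SnoRNA genes were bound more often than annotated genes as a whole and less often than tRNA genes. A conservative summit lay within 100 bp of 2.18% of all other annotated nuclear genes, of 38.4% of 612 tRNA genes, of 7.75% of 129 snRNA genes and of 1.15% of 261 microRNA genes. Consecutive windows of 330 bp along the genome, the median length of a snoRNA gene with 100 bp on each side, held a summit in 0.364% of cases. The share of 16.5% among snoRNA genes lay above the share of snRNA and microRNA genes and below that of tRNA genes. These shares are descriptions without a test. No bound snoRNA gene had a tRNA, snRNA, ribosomal RNA or microRNA gene within 200 bp, whereas 3 unbound genes did.

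Peaks at snoRNA genes were among the strongest of the list. The signal value, the authors' own measure of a peak, had a median of 227 over bound genes (lowest 67.6, highest 794) against a median of 104 over all 1107 conservative peaks. Of the strongest 50 peaks 16 lay at snoRNA genes, of the strongest 100 it was 24, and of the strongest 500 it was 45. The highest reproducibility score of 1000 was reached at 53 of 57 bound genes (92.98%) and by 78.7% of all conservative peaks.

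The strongest member signal belonged to the gene pair C51F7.3 and C51F7.4 at the gene frm-7, which encodes a FERM domain protein. Its signal value was 794 in the conservative list, 293 in replicate 1 and 494 in replicate 2. W03C9.9 (chrII:11960898-11960959), an independent gene, came second in the list with 789, from 318 in replicate 1 and 467 in replicate 2. In replicate 1 W03C9.9 was the strongest snoRNA gene, and in replicate 2 the frm-7 pair was.

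T06C12.16 (chrV:15873855-15873926), beside the chemoreceptor gene str-56, had 631 in the conservative list, 254 in replicate 1 and 364 in replicate 2. T03F7.8 (chrV:11314258-11314332), in an intron of cutl-18 but on the opposite strand, had 620.4, with 249.7 and 356 in the replicates. ZK265.10, an independent gene 498 bp from the chemoreceptor gene sre-23, had 605, with 218 and 386. These 5 loci were the highest of all snoRNA genes in each replicate as well as in the conservative list, and they stood clear of the next genes.

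ZK994.7 (chrV:8500579-8500645), in an intron of the peroxidasin gene pxn-1, had 466, with 167 in replicate 1 and 296 in replicate 2. It was the strongest of the genes with a PSE-like word. T02E1.9, which overlaps the gene spe-12 but lies in no intron of it, had 428, with 146 and 282. B0334.12 (chrII:11484683-11484752), antisense in an intron of the potassium channel gene twk-5, had 403, with 158 and 247. Intronic, independent and antisense genes were thus all among the strongest.

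Y43F8C.22 (chrV:19643050-19643187), in an intron of Y43F8C.7, had 370.03 in the conservative list, 114 in replicate 1 and 251 in replicate 2. It was the strongest bound gene of over 100 bp. F32E10.10 (chrIV:7574122-7574191) had 356, with 125 and 227, and C46C2.8 (chrIV:9191261-9191333) had 354, with 124 and 226. Both are independent genes, and their values differed little from each other in every list.

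The values of bound genes in the replicates are described here, and bound genes were chosen by the authors' comparison of these same replicates. A candidate within 100 bp was present at 55 of 57 bound genes in replicate 1 and at 56 in replicate 2. Over the 54 distinct summits with a candidate in both replicates, log2 signal values had a Pearson r of 0.924 and a Spearman rho of 0.918, given as a description because the points share the same 2 libraries and had passed a test of agreement between them. The value was higher in replicate 2 at 53 of the 54, where the scales of the lists differ. The exception was Y39G10AR.24, with 70.6 in replicate 1 and 64.9 in replicate 2. Summit positions of the replicates differed by a median of 10 bp.

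**Figure D1:**
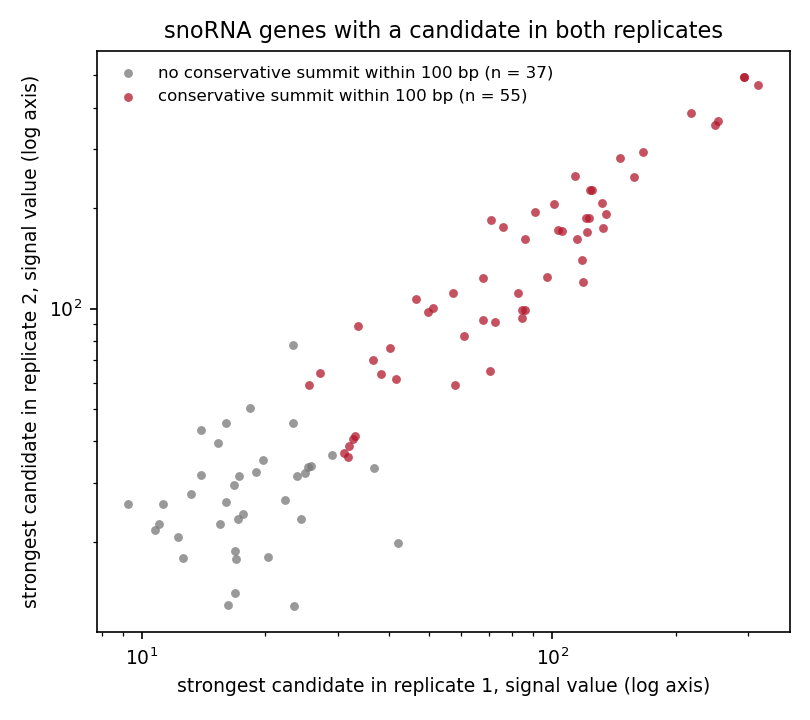
Signal value of the strongest candidate within 100 bp of each snoRNA gene in replicate 1 (x axis) and replicate 2 (y axis), both on log axes, for the 55 bound genes (red) and the 37 unbound genes (grey) with a candidate in both. Bound genes run from 25.6 to 318 in replicate 1 and from 35.8 to 494 in replicate 2. Unbound genes reach 42.2 in replicate 1 and 77.6 in replicate 2, so the groups overlap. Bound genes were chosen by the authors' comparison of these same replicates, so their higher values are a description.

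Not every bound gene passed in each replicate alone. The authors' own thresholded list of replicate 1 had a summit at 45 of the 57 genes and that of replicate 2 at 50, with 44 in both. F11A10.9 (81.2), F47G4.9 (76.1), D2021.6 (71.2), W04D2.7 (67.7), Y37E3.20 (67.6) and F59C6.15 (195) were in neither own list. The first 5 of these had the 5 lowest signal values of all bound genes. F59C6.15 had no candidate within 100 bp in either replicate, and its conservative summit lay 94 bp from the gene, close to the limit. Y71D11A.7, in an intron of acsd-1, had a candidate of 70.0 in replicate 2 and none in replicate 1.

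Some unbound genes carried candidates below the threshold of the conservative list. Of 289 unbound genes 73 had a candidate in replicate 1 (25.3%, exact interval 20.4 to 30.7) and 78 in replicate 2 (27.0%, interval 22.0 to 32.5), 37 had one in both and 175 in neither. Genome windows of 330 bp held a candidate in 13.0% of cases for replicate 1 and in 14.2% for replicate 2. The median signal value of the candidates at unbound genes was 16.9 in replicate 1 and 24.0 in replicate 2, close to the medians of all candidates, 15.2 and 20.7.

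The strongest unbound gene in replicate 1 was W01H2.11, an independent gene on the X chromosome, with 42.2. Replicate 2 had 19.9 there, and the own list of replicate 1 included the gene. In replicate 2 the strongest unbound gene was C17D12.8, antisense in pcmd-1, with 77.6 against 23.3 in replicate 1. W10C8.17, in an intron of pop-1, the TCF factor of Wnt signalling, had 55.1 in replicate 2 and no candidate in replicate 1. Both were in the own list of replicate 2, so that each of these 3 genes passed in 1 replicate and not in the comparison of both.

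Intronic and independent genes were bound at like rates. A gene was intronic when it lay whole in an intron of a protein-coding transcript on the same strand, and independent when it overlapped no protein-coding gene. Bound were 24 of 150 intronic genes (16.0%, exact interval 10.5 to 22.9) and 22 of 124 independent genes (17.7%, interval 11.5 to 25.6). Of genes in an intron on the opposite strand 7 of 28 were bound (25%, interval 10.7 to 44.9), and of the genes with another overlap 4 of 44 (9.09%, interval 2.53 to 21.7). The intervals of all 4 classes overlap.

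Signal values spread widely within each class. The median over bound genes was 179 for intronic genes (67.6 to 794), 211 for independent genes (71.2 to 789), 307 for antisense intronic genes (124 to 620.4) and 358 for the 4 genes with another overlap (195 to 794). In replicate 1 the medians of intronic and independent genes were 84.5 and 76.1, and in replicate 2 they were 103 and 120.2. The order of these classes thus turned between the replicates, and their ranges overlapped almost fully.

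**Figure D2:**
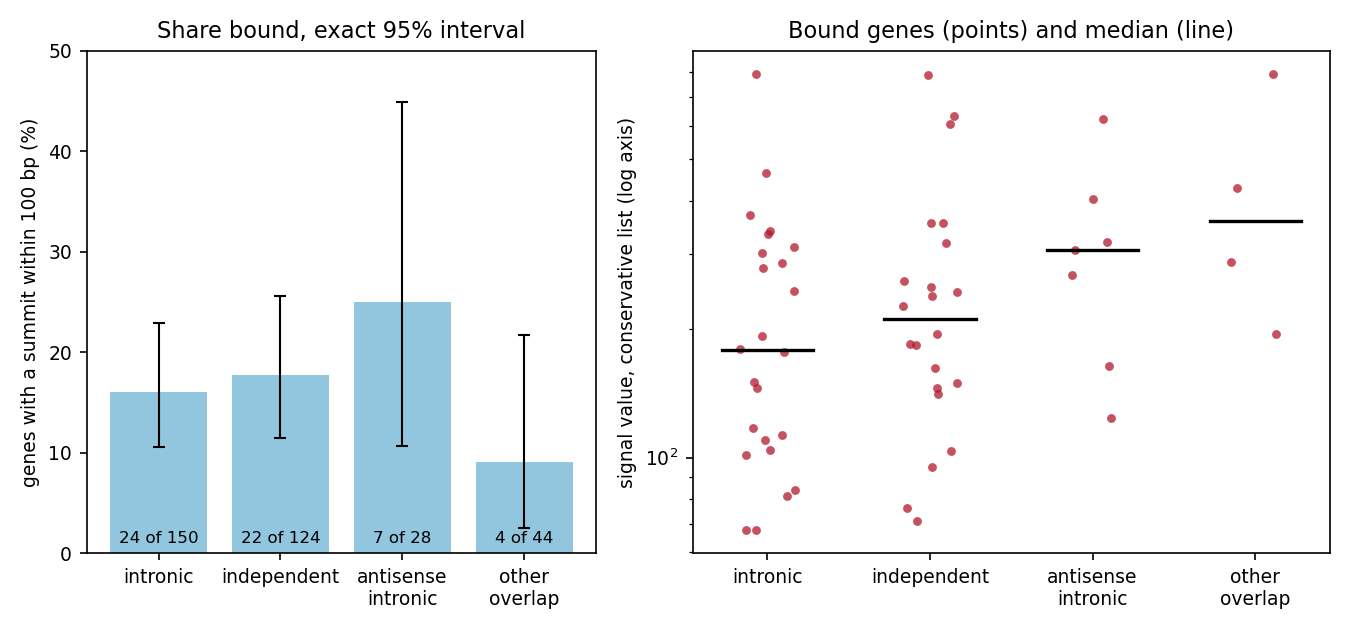
Left, percent of snoRNA genes with a conservative summit within 100 bp in each location class, with exact 95% intervals and counts. Right, signal value of each bound gene on a log axis with the median as a line; the classes overlap, from 67.6 to 794 for intronic and from 71.2 to 789 for independent genes.

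Among independent genes, those near a protein-coding gene were bound more often. Within 500 bp of one, 17 of 51 were bound (33.3%, interval 20.8 to 47.9), and farther away 5 of 73 (6.85%, interval 2.26 to 15.3). The 5 were H09I01.2 (signal value 319), Y23H5B.10 (259), ZK643.9 (252), T19B4.8 (239) and C53B7.8 (94.9), named because of their small number. The nearer genes also had a box A and box B pair more often, 12 of 51 against 7 of 73, and were under 100 bp long more often, 18 of 51 against 12 of 73. The part of these features in the difference was not tested. The summit itself lay within 500 bp of a protein-coding transcript start at 7 of 22 bound independent genes and at 6 of 24 bound intronic genes. Over all bound genes it was 16 of 57 (28.1%). The same share over all conservative peaks was not counted, so these counts have no background beside them.

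Short genes were bound more often than long ones. Under 100 bp, a length typical of box C/D snoRNAs, 34 of 93 genes were bound (36.6%, interval 26.8 to 47.2), and at 100 bp or more 23 of 253 (9.09%, interval 5.85 to 13.3). The same order held for intronic genes, with 11 of 41 against 13 of 109, and for independent genes, with 15 of 30 against 7 of 94. Bound genes under 100 bp had a median signal value of 287, and longer ones 164. A box D word, CTGA, stood in the last 15 bases of 27 of 57 bound genes and of 50 of 289 unbound genes. Anywhere in the gene, CTGA was found in 39 bound (68.4%) and 147 unbound genes (50.9%). The box C word TGATGA was found in 12 bound (21.1%) and 39 unbound genes (13.5%), so most bound genes lacked it. An ACA in the last 6 bases, as in the H/ACA class, was found in 19 bound (33.3%) and 61 unbound genes (21.1%). The length limit and the window of 15 bases for box D were chosen after the data had been seen.

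The summit lay just upstream of the gene. Of 57 bound genes 53 had the summit before the first base (92.98%, interval 83 to 98.1), 3 inside the gene and 1 beyond its end. Counted from the first base of the gene with negative values upstream, the median position was -50 (quartiles -59 and -39), and 47 of 57 summits lay 20 to 80 bp upstream. All 22 independent and 22 of 24 intronic genes had the summit upstream, with medians of -48 and -55.5. The replicates' own candidates had medians of -45 in replicate 1 and -48 in replicate 2.

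The exceptions were few. ZK994.7 had its summit at position 7, F11A10.9 at position 1 and C51F7.4 at position 37, all inside the gene. C51F7.4 (chrV:12303599-12303693) precedes C51F7.3 (chrV:12303708-12303783) on the same strand, and their shared summit lay inside the first and at position -72 of the second. B0334.12 was the single gene with a summit beyond its end, at position 130.

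**Figure D3:**
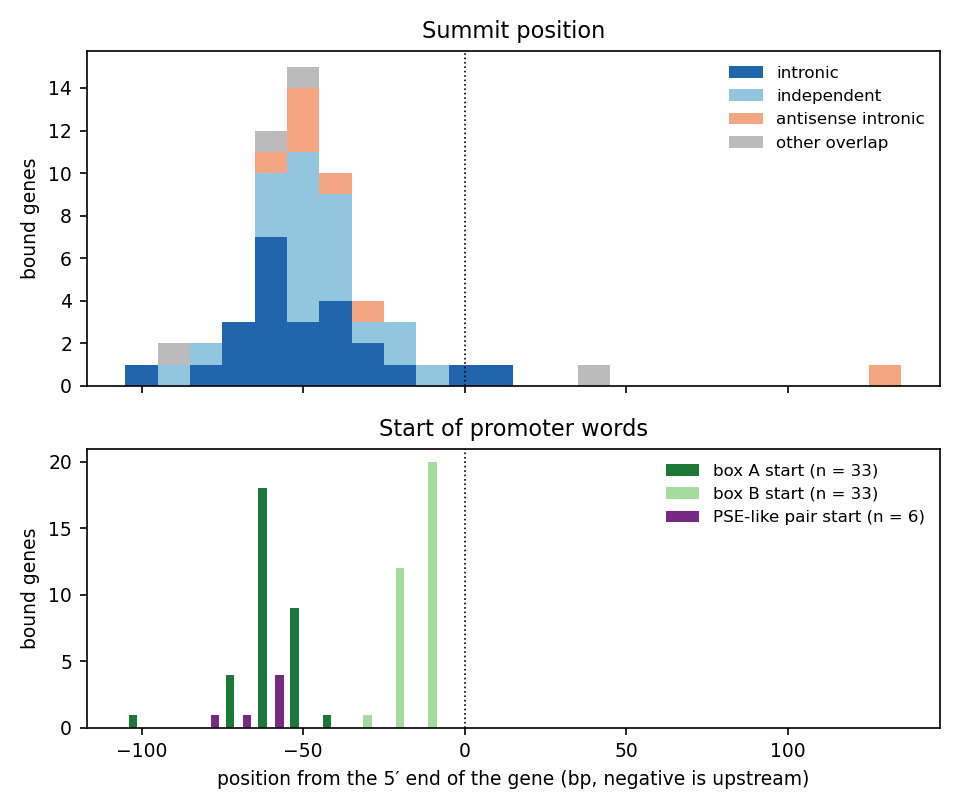
Top, number of bound snoRNA genes by position of the conservative summit in bins of 10 bp, stacked by location class, with the dotted line at the 5′ end of the gene. Bottom, start of box A, box B and the PSE-like word pair in the bound genes that have them. Summits centre on -50, between the starts of box A (median -58) and box B (median -15).

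The tRNA-like pair of box A and box B was found at most bound and few unbound genes. It was chosen after sequences upstream of these same bound genes had been seen, so the shares describe the genes and test nothing. Searched on the strand of the gene from 200 bp before to 100 bp after its start, with 25 to 90 bases between the starts of the boxes, it was present at 33 of 57 bound genes (57.9%, interval 44.1 to 70.9) and at 10 of 289 unbound genes (3.46%, interval 1.67 to 6.27). Windows of the same 300 bases held it at 91.0% of tRNA gene starts, 3.1% of snRNA, 1.92% of microRNA and 0.516% of protein-coding gene starts, and in 0.956% of consecutive genome windows. Read on the opposite strand, 0 bound genes (interval 0 to 6.27%) and 3 unbound genes had a pair. The word GTTCNANNC, a core of box B taken on both strands, was present at 30 bound (52.6%) and 34 unbound genes (11.8%) and in 10.6% of genome windows.

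The pair had a fixed place. In all 33 bound genes with a pair box A began upstream of the gene, at a median position of -58 (quartiles -62 and -55), and box B began at -15 (quartiles -18 and -12). From box A to box B it was 44 bp (quartiles 43 and 44), as in tRNA genes, where the median was 44 bp (quartiles 43 and 52, 557 genes) but box A began 7 bases inside the gene. The summit lay between the start of box A and the end of box B in 27 of 33. Relative to the middle of the pair, its median position was -16 bp, on the upstream side.

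Both location classes carried the pair at like shares. It was present at 14 of 24 bound intronic genes and 14 of 22 bound independent genes, against 4 of 126 unbound intronic and 5 of 102 unbound independent genes. Both boxes were complete in T24H7.6 (signal value 177, 86.1 in replicate 1 and 98.7 in replicate 2), a gene in an intron of T24H7.2, and in Y43F8C.22 (370.03). Bound genes with a pair had a median signal value of 227 (81.2 to 789) and the 18 bound genes with neither kind of word 273 (71.2 to 794). The ranges of these groups overlap almost fully.

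Of the 43 snoRNA genes with a pair 33 were bound (76.7%, interval 61.4 to 88.2), and with box A upstream of the gene 33 of 39 were (84.6%, interval 69.5 to 94.1). Box A began upstream in all 33 bound and in 6 of 10 unbound genes with a pair. The second share is thus higher only because the condition, met by every bound gene, removed unbound ones. Of the 284 genes with neither kind of word 18 were bound (6.34%, interval 3.80 to 9.83). For tRNA genes, 216 of 557 with the pair and 19 of 55 without it were bound (38.8% and 34.5%). Away from small RNA genes by over 200 bp, genome windows of 300 bp with a pair on either strand held a summit in 0.859% of 5705 cases, against 0.227% of 325181 windows without one. The share bound among snoRNA genes with a pair thus stood above that of tRNA genes with a pair, side by side and without a test. The pair was chosen after sequences upstream of bound snoRNA genes had been seen, so these shares are not on equal terms.

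The 6 unbound genes with box A upstream were D1054.17, F19H8.6, R166.7 and T23B12.13 in introns, and K09E9.5 and Y59E1B.14, both independent and on the X chromosome. Their candidates were weak. The highest were 21.2 in replicate 1 (Y59E1B.14) and 31.7 in replicate 2 (F19H8.6, in mltn-9). In the other 4 unbound genes with a pair, C33E10.11, T27A8.8, W06D12.9 and Y77E11A.21, box A began inside the gene and neither replicate had a candidate. Of the 33 X-linked snoRNA genes 2 were bound, C53B7.8 (94.9) and D2021.6 (71.2), which is 6.06% (interval 0.743 to 20.2). On the autosomes the share ran from 11.1% on chromosome III to 23.6% on chromosome V.

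The count of pairs depended on the mismatches allowed. With 1 mismatch in each box 12 bound (21.1%) and 2 unbound genes (0.692%) had a pair, and with 3 mismatches 49 bound (86.0%) and 124 unbound genes (42.9%). At 3 mismatches box A began 45 to 75 bp upstream in 41 of the 49 bound genes and in 24 of the 124 unbound ones. Among the 18 bound genes with neither kind of word, 14 had a pair at that limit. The word searches and their limits were chosen after the upstream sequences had been seen, and the shares are descriptions.

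PSE-like words marked a weaker set of bound genes. The pair of words was found at 6 of 57 bound genes (10.5%, interval 3.96 to 21.5) and 13 of 289 unbound genes (4.50%, interval 2.42 to 7.57), so that 6 of the 19 genes with it were bound. It stood at 10.1% of snRNA gene starts, 0.0451% of protein-coding gene starts and 0.101% of genome windows. No bound gene had both kinds of word. Among intronic genes 4 of 24 bound and 2 of 126 unbound genes had the PSE-like word. Among independent genes the shares were alike, 2 of 22 bound (9.09%) and 8 of 102 unbound genes (7.84%). For snRNA genes, 1 of 13 with the word and 9 of 116 without it were bound (7.69% and 7.76%). The word began at a median position of -59.5 in bound genes and -60 in unbound genes.

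The 6 genes spanned a range of signal. ZK994.7 (466) was described above. F59C6.15 had 195, smy-2 84.1, F47G4.9 76.1, W04D2.7 67.7 and Y37E3.20 67.6 in the conservative list. In replicate 1 smy-2, the single bound gene with a name of its own, had 25.6 and in replicate 2 58.9. W04D2.7, in an intron of the innexin gene inx-11, had 31.1 and 36.8, Y37E3.20, in pcyt-2.1, had 31.7 and 35.8, and F47G4.9 had 33.0 and 41.6. Apart from ZK994.7 and F59C6.15 these were 4 of the 6 weakest bound genes, and 4 of the 6 were in neither replicate's own list. Of the unbound genes with the word, C16D9.11 in an intron of rol-3 had the highest candidate in replicate 1 (29.0, and 36.3 in replicate 2) and F25H2.15 in replicate 2 (45.2, and 23.3 in replicate 1).

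A run of T after the gene went with the box pair. Within 15 bases of the annotated 3′ end, TTTT was present at 42 of 57 bound genes (73.7%, interval 60.3 to 84.5) and at 84 of 289 unbound genes (29.1%, interval 23.9 to 34.7). The same window held it after 98.0% of tRNA genes and 24.0% of snRNA genes, and in 19.6% of genome windows. The T run too was chosen after the data had been seen. Of the bound genes with a box pair 29 of 33 had it, of those with a PSE-like word 2 of 6. Of the 35 genes with a pair and a T run 29 were bound, and of the 8 with a pair alone 4. Of the 91 with a T run alone 13 were bound, and of the 212 with neither 11.

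Other words were not more frequent at bound genes to the same degree. In the 300-base window on both strands, the T-box consensus AGGTGTGA was present at 0 of 57 bound genes (interval 0 to 6.27%) and 3 of 289 unbound genes (1.04%), and in 0.625% of genome windows. Its shorter core GGTGTG was present at 8 bound genes (14.04%, interval 6.26 to 25.8) and 30 unbound genes (10.4%, interval 7.11 to 14.5), and in 6.69% of genome windows. GAGAGA was present at 16 bound genes (28.1%, interval 17.0 to 41.5) and 72 unbound genes (24.9%), and in 14.4% of genome windows. The GC box GGGCGG was present at 9 bound (15.8%, interval 7.48 to 27.9) and 23 unbound genes (7.96%), and in 4.63% of genome windows. Further forms of the T-box site were not searched.

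**Figure D4:**
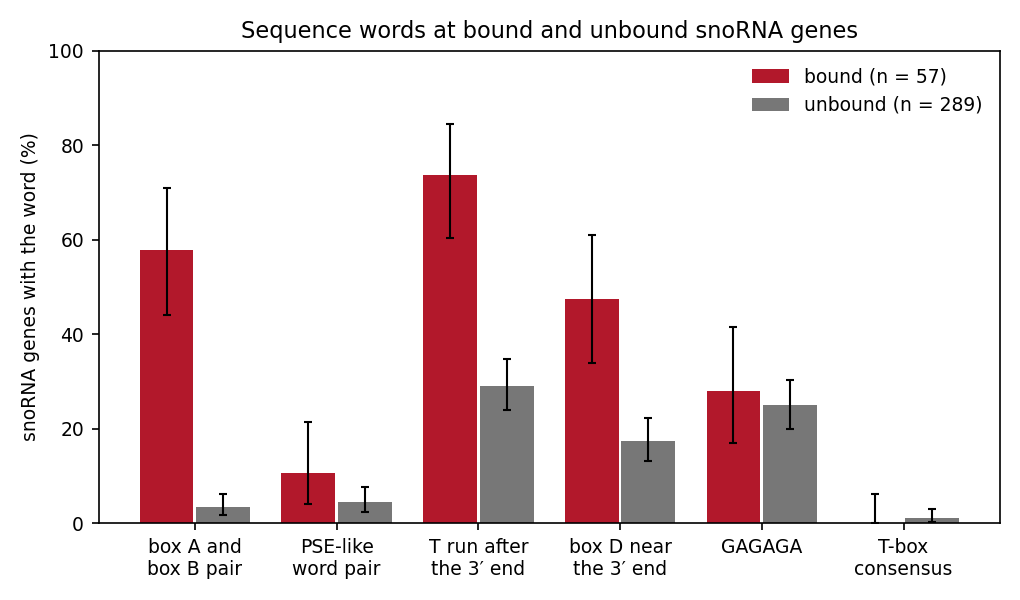
Percent of bound (red) and unbound (grey) snoRNA genes with each kind of word, with exact 95% intervals. The box pair, the PSE-like word, the T run and the window for box D were chosen after these data had been seen. The box A and box B pair (57.9% against 3.46%) and the T run (73.7% against 29.1%) differ most, GAGAGA (28.1% against 24.9%) differs little, and the 8-letter T-box consensus was found at 0 bound genes, where its core GGTGTG (not drawn) was found at 14.04% of bound and 10.4% of unbound genes.

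Each bound intronic gene had a host of its own. The 150 intronic genes lay in 130 host genes, and the 24 bound ones in 24. Among the hosts were mix-1 (M106.6, signal value 285), which encodes a condensin subunit, unc-70 (K11C4.6, 180.2), which encodes beta-spectrin, and rpn-8 (R12E2.17, 104), which encodes a proteasome subunit. Others were fars-1 (T08B2.13, 145), a phenylalanyl-tRNA synthetase subunit, mdt-4 (ZK546.18, 151), a subunit of Mediator, and cogc-3 (Y71F9AM.7, 113), a subunit of the COG complex of the Golgi. M106.6 had 103 in replicate 1 and 172 in replicate 2, K11C4.6 had 84.5 and 93.8, and T08B2.13 had 46.7 and 107. No common function of these hosts was tested.

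No snoRNA gene in a ribosomal protein gene was bound. Ribosomal protein genes, taken as those with symbols beginning rpl- or rps-, hosted 19 intronic genes in 13 hosts, and 0 were bound (interval 0 to 17.6%). Host genes with other symbols were not counted in this class, whatever they encode. Translation factor genes hosted 3, of which 0 were bound (interval 0 to 70.8%). The remaining 115 hosts had 24 bound of 128 genes (18.75%, interval 12.4 to 26.6). In the 16 hosts with more than 1 snoRNA gene, 0 of 36 genes were bound (interval 0 to 9.74%), and 11 of these 36 are in ribosomal protein genes and 2 in a translation factor gene counted above. Of the 36, 4 lie in nol-56, which encodes a box C/D particle protein. The intervals of the ribosomal protein and translation factor hosts include the share of all intronic genes (16.0%), and the differences were not tested. The interval of hosts with more than 1 snoRNA gene ends below that share, but it counts genes of the same host as separate. With 36 genes in 16 hosts it is too narrow, and no conclusion is drawn from it.

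Peaks at the start of the host itself were counted apart from those at the snoRNA gene. Taking 1000 bp upstream to 200 bp downstream of a transcript start, 4.43% of all 19973 protein-coding genes had a conservative summit. Of the 24 hosts of bound genes 2 had one other than the snoRNA peak (8.33%, interval 1.03 to 27.0), madf-11 (86.9) and unc-70 (92.6). In 5 others of the 24 (20.8%, interval 7.13 to 42.2) the snoRNA peak itself lay in this window and was left out of that count. Whether these 5 peaks belong to the host start or to the snoRNA gene was not tested. Of the 106 hosts without a bound gene 15 had a summit in the window (14.2%, interval 8.14 to 22.3), a share above that of all protein-coding genes and given without a test. The snoRNA genes in madf-11 and unc-70 had higher values, 333 for C05D2.15 (136 in replicate 1 and 193 in replicate 2) and 180.2 for K11C4.6.

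Bound intronic genes lay away from the 5′ splice site and near the 3′ splice site. All 24 began at least 60 bp after the 5′ splice site, against 74 of 126 unbound ones, with medians of 154 bp (68 to 5109) and 114.5 bp (6 to 9381). From the end of the gene to the 3′ splice site the medians were 50.5 bp (14 to 1155) and 131 bp (4 to 8968). The host introns had medians of 309 and 407 bp. The limit of 60 bp was chosen after the data had been seen. Of the 14 bound intronic genes with a box pair, 13 had box A inside the intron. In the other, F55A11.10, box A began at -100 and the 5′ splice site lay 82 bp before the gene.

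**Figure D5:**
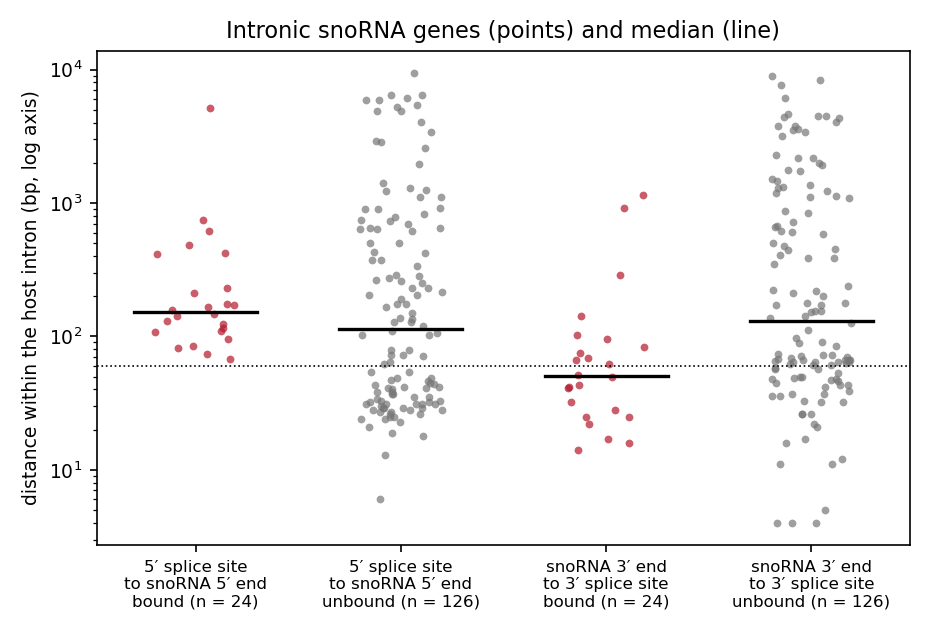
Distance in bp (log axis) from the 5′ splice site of the host intron to the snoRNA gene and from the gene to the 3′ splice site, for 24 bound (red) and 126 unbound (grey) intronic genes, with medians as lines and the dotted line at 60 bp. All bound genes lie above 60 bp on the 5′ side (lowest 68), and their median on the 3′ side is 50.5 bp against 131 bp.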

How the data were processed

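TBX-37 ChIP-seq of 2 biological replicates was analysed from peak lists in ce11 coordinates, the build named in the labels. For the aligner and the peak caller, names are not given in the sources used. The signal value and the score of each peak are the authors' own deposited values, and the deposited offset of the summit from the start of the peak gave its position. The −log10 of the irreproducible discovery rate in the authors' ranked lists was read for candidates below the threshold. The ranked list for both replicates has 8 more per-sample columns with no replicate named, and these were left out. Signal scales differ between lists, so values were ranked within a list.

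Genes came from Ensembl release 115 and sequence from the RefSeq copy of WBcel235, in which 345 of the 346 members had the same coordinates. Distances, shares and exact Clopper-Pearson intervals were computed with Python 3, pandas and scipy. Depth is unknown. The assignment of summits and the search for words were tested on simulated data. There was no contrast between groups and no test was run. Named genes are the strongest bound genes overall and by class, the strongest unbound gene in each replicate, hosts, genes with their own symbol and those singled out by a small count. Members and lists were chosen with earlier results of these data known. Alternatives were other lists, distances, midpoints and classes of genes. Box pairs, PSE-like words, T runs, gene ends, the length limit, the splice site limit and the printed genes were chosen after words of 6 to 8 bases upstream of bound genes had been looked at.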

Additional observations from a re-analysis of the deposited data

How the results depend on the processing

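Of 48 alternatives 31 gave a value close to the one reported and 17 moved it, and none turned the upstream position of the summit around. The count of 57 bound genes became 54 in the other series-wide list, 46 and 52 in the own lists of replicate 1 and replicate 2, 53 with the highest score only and 56 with neighbouring genes as 1 locus. It moved with the distance allowed, to 3 with the summit inside the gene and 30 within 50 bp, and was 63 within 250 bp. These distances gave 1.33% and 7.33% for intronic and 0% and 11.3% for independent genes. At least 500 bp from a protein-coding gene, 6.85% of independent genes were bound. The share of genes with a candidate was 37.0% in replicate 1 and 38.7% in replicate 2, and moved to 10.4% and 11.8% inside the gene, 24.3% and 26.3% within 50 bp, and 49.4% and 53.2% within 250 bp. With 1 mismatch in each box the pair was found at 21.1% of bound and 0.692% of unbound genes, with 3 at 86.0% and 42.9%, an alternative chosen after seeing the data. The median summit position ran from -50 to -40.5. Summits lie upstream and fewer are reached by a shorter distance. Depth is unknown, so its part in the signal of weakly bound genes was not tested. With 2 replicates, 1 group and no control library analysed, neither the spread between embryos nor a dependence on TBX-37 can be given. No paired analysis was possible because the study has 1 group.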

Other observations

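Peaks were counted at genes for proteins that build snoRNA particles or transcribe small RNA genes. Of 12 names of particle proteins and assembly factors 9 matched the annotation. A summit lay at a start, in the window given above for hosts, in 2 of these (22.2%, exact interval 2.81 to 60.01, which includes the 4.43% of all protein-coding genes). The 2 genes were nol-58, a core protein of box C/D particles (signal value 77.4), and ruvb-1, an ATPase of the assembly complex (86.2). No summit was found there at fib-1, the fibrillarin gene, or at dkc-1, the dyskerin gene. Of 16 names for RNA polymerase III and the snRNA activating complex 15 matched and 0 had a summit (interval 0 to 21.8%, which includes 4.43%).

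B0334.12 was the single bound gene whose summit lay beyond its end, and its letters were then read on both strands, a choice made after its position had been seen. The annotation places it on the plus strand. In the sequences below, read from chrII:11484683-11484752 of ce11, capitals mark TGATG near the start and CTGA near the end. CTGA is the word of box D, and TGATG is the box C word TGATGA without its last letter.
B0334.12 as annotated: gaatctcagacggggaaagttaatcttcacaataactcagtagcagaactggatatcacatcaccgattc
B0334.12 opposite strand: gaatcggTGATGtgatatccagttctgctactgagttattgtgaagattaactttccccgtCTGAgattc
As annotated, neither word stands at the ends. On the opposite strand TGATG and CTGA do, whereas the full TGATGA is found on neither strand. Box C was shortened for this gene alone. CTGA in the end window used above was found at 47.4% of bound and 17.3% of unbound genes. The summit lies at position -61 on the opposite strand, which only restates its distance from the annotated end. A box pair with no mismatch in box A and 3 in box B begins at -62 and -25 on that strand. This match is beyond the limit of 2 mismatches used elsewhere. With 3 mismatches allowed, 86.0% of bound and 42.9% of unbound genes had a pair on their annotated strand. No conclusion on the strand of the gene is drawn from these matches. As annotated the summit lies at position 130. Whether RNA is made from the opposite strand was not tested, since the lists hold no RNA measurement.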
